A study of Homo sapiens with 6 samples.

Results

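The insulin-like growth factor (IGF) axis was followed in A-498 cells, an established human renal cell carcinoma line, at 10 genes: the ligand IGF2, the receptors IGF1R and IGF2R, and the binding proteins IGFBP1 to IGFBP7. Its members were all probe sets whose annotation names exactly 1 of these genes, which gave 22 of the 22277 probe sets on the array, each a group of short probes for a transcript. Of these, 19 carry a member's symbol alone, and 3 carry IGF2 together with the read-through gene INS-IGF2, so that those 3 cannot be assigned to either gene. Total RNA came from 3 untreated cultures (0 µM zebularine) and 3 cultures grown with 1000 µM zebularine, all sampled at 120 h. Zebularine is a cytidine analogue that inhibits DNA methyltransferases. Each of 3 experiments gave 1 untreated and 1 treated culture, and every culture was split during the treatment period. All 6 arrays are of 1 cell line grown as a monolayer, so the values describe that line.

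The IGFs are secreted peptides that drive growth and survival. IGF1R is a receptor tyrosine kinase that passes their signal to the PI3K-AKT and RAS-MAPK pathways. IGF2R, which is also the cation-independent mannose 6-phosphate receptor, takes IGF2 up for breakdown in lysosomes and does not signal as a kinase. The IGFBPs are secreted proteins that hold IGFs in the fluid around cells. They block or prolong receptor binding, and several also act on cells without IGF. IGF2 is expressed from the paternal allele in many tissues, where DNA methylation near the gene takes part in its control.

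The arrays were alike in scale, but MAS5, the processing used by the submitters, brings arrays to a common scale. That likeness is therefore no check of the arrays. The mean between the 2nd and 98th percentile lay between 499.1 and 499.8 signal units on every array. Both arrays of experiment 3 had a lower brightest signal, at 31176 and 28720.5 against 66289.9 to 71174 on the other 4. All 8 markers examined for renal epithelium and renal carcinoma were bright enough to test. They were PAX8, PAX2, CDH6, CDH2, KRT8, KRT18, KRT19 and VIM, and not all of them are particular to kidney. Of the others, 0 of 3 leukocyte, 0 of 3 endothelial and 0 of 4 hepatocyte markers were bright enough. Of 5 fibroblast markers only COL1A1 was. Titles call the cultures biological replicates, and precision is limited throughout by having 6 arrays.

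IGFBP6 was the member that differed most between treated and untreated cultures. IGFBP6 encodes a binding protein with a marked preference for IGF2 over IGF1. Its signal was 1816, 1923 and 1391 in untreated cultures 1, 2 and 3, and 3072, 4969 and 3413 in the treated cultures of the same experiments. Every treated culture was above every untreated one. Group means were 1710 ± 281 and 3818 ± 1011 (SD, n = 3), and the ratio of treated to untreated signal was 1.69, 2.58 and 2.45 in experiments 1, 2 and 3. A difference of this kind, in which groups do not overlap and treated cultures are higher, occurred at 8.71% of all tested probe sets.

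On the log2(signal + 16.34) scale used for all tests, IGFBP6 was higher by 1.13 ± 0.26 (standard error; 2.19-fold), with a 95% interval from 0.56 to 1.70. Without the experiment in the model this missed the threshold of 0.05 (limma, Benjamini-Hochberg adjusted p = 0.0804). The untreated and treated arrays of a number carry the same experiment name, and when the fit was blocked by experiment IGFBP6 rose (limma, adjusted p = 0.00874, standard error 0.19, 95% interval 0.72 to 1.55). By p-value it ranked 145 of 13545 probe sets without the block and 107 with it. Leaving out each experiment in turn gave blocked values between 1.02 and 1.32 (limma, adjusted p from 0.0134 to 0.0189). Leaving out each array in turn, without the block, gave 0.93 to 1.27.

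Some other measures are given by group and experiment. The ratio of 3' to 5' signal is a sign of RNA integrity. For GAPDH it was 1.52, 1.19 and 1.07 in untreated and 1.34, 1.16 and 1.01 in treated cultures. It was lower in each experiment, and the groups overlapped. For ACTB it was 3.10, 2.38 and 1.71 in untreated and 5.25, 2.06 and 1.49 in treated cultures, so that it was higher in experiment 1 and lower in the other 2. The summed signal of the 5 fibroblast markers was 302 to 424 in untreated and 480 to 726 in treated cultures, and 4 of the 5 were too dim to test. COL1A1 carried that sum, with means of 197 and 398 and no call (limma, adjusted p = 0.313), while COL1A2 had means of 72.1 and 27.0. Of the renal markers CDH6, a cadherin of kidney epithelium, fell from a mean of 1400 to 162, a log2 difference of -2.85 (limma, adjusted p = 0.0206), and no other tested marker was called without the block. Fewer or more cells of a type and a change in RNA per cell cannot be told apart in such samples. The part of these measures in the IGFBP6 values was not tested.

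**Figure D1:**
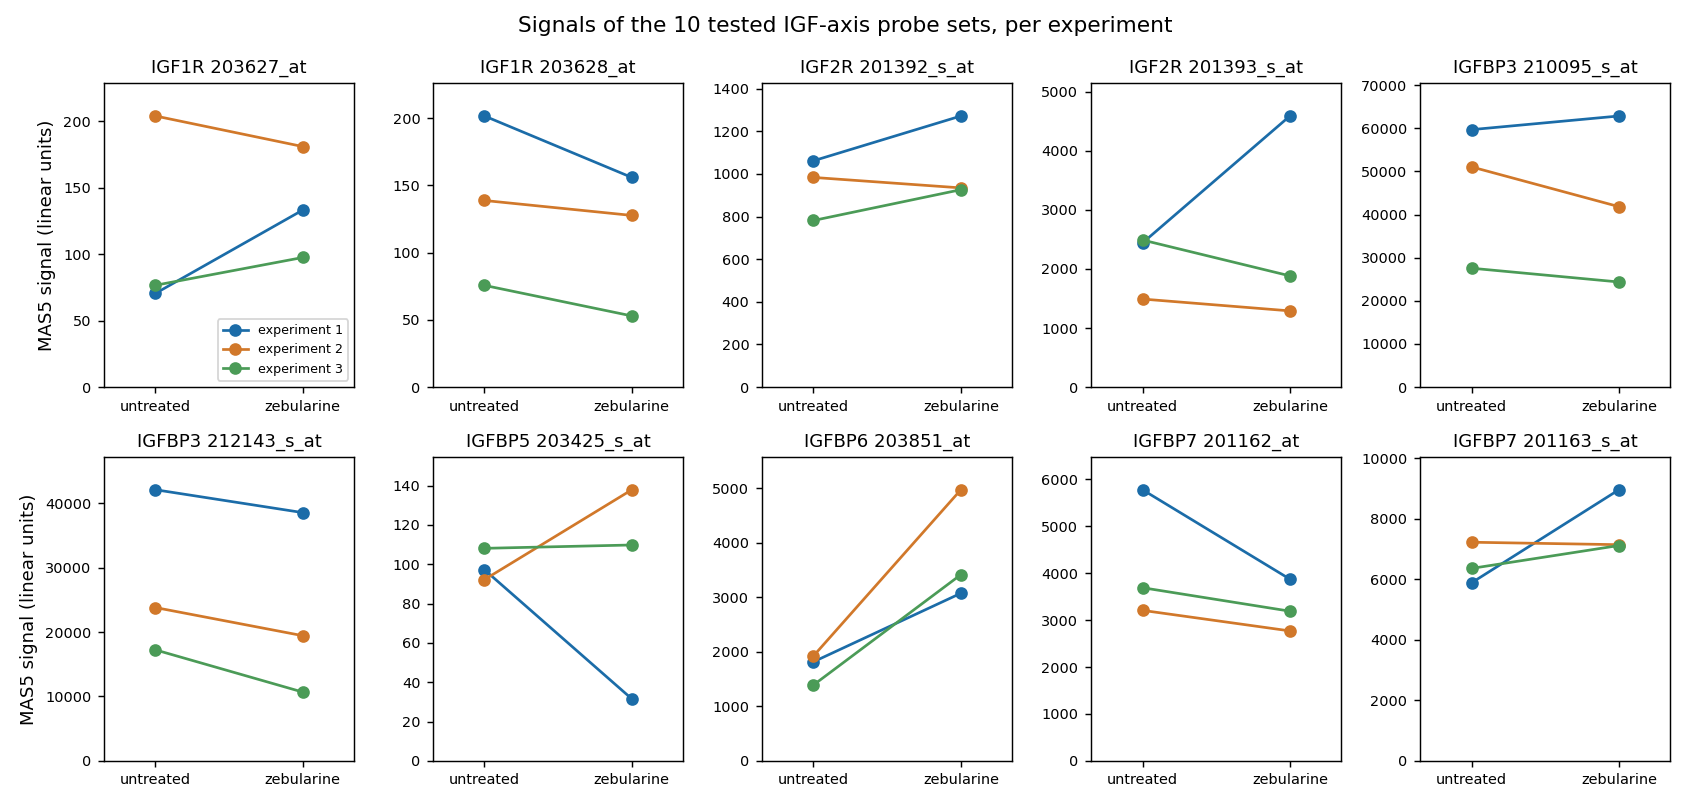
MAS5 signal in linear units (vertical axes from 0) for the 10 IGF-axis probe sets bright enough to test, in untreated and zebularine cultures. Each line joins the untreated and the treated culture of 1 experiment; for IGFBP6 the treated signals of 3072 to 4969 lie above the untreated 1391 to 1923, and the groups overlap in the other 9 panels.

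DNA methyltransferases act on cytosines in CG dinucleotides, so the CG content of the members' promoters is given beside these values. Promoter windows of 300 bases, from 250 before to 50 after each RefSeq transcription start (build GRCh38.p14), were found for 7 of the 10 genes. IGFBP6 had 12 CG dinucleotides in its window, near the median of 14 over all 35116 windows, and 53.1% of windows held as many or more. The median lies between peaks of the distribution. A count of 12 occurred in 485 windows, against 2540 with a count of 2 and 696 with a count of 27. The window of IGFBP3 held 36 (12.7% of windows held as many or more), that of IGFBP4 30 (22.4%), that of IGF2R 41 (6.7%) and that of IGF1R 55 (0.4%). IGFBP5 had 9. IGFBP2 has 3 windows with 8, 28 and 6. At least 1 CG occurred in 96.0% of all windows. The motif CG reads the same on both strands, and its count says nothing of whether a site was methylated in these cells, which was not measured here. The 250 bases before the start are printed 5' to 3' on the gene's strand, with each CG in capitals, for the member that rose with the block (IGFBP6, chr12:53097417-53097666, plus strand, 9 CG), a bright member whose interval spanned 0 at both probe sets without it (IGFBP3, chr7:45921273-45921522, minus strand, 32 CG) and a member too dim to test (IGFBP4, chr17:40443200-40443449, plus strand, 24 CG).
IGFBP6: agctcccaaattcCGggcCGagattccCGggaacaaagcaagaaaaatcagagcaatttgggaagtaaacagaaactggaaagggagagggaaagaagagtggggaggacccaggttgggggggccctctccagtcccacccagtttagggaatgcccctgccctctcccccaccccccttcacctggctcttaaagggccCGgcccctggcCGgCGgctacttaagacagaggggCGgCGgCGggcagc
IGFBP3: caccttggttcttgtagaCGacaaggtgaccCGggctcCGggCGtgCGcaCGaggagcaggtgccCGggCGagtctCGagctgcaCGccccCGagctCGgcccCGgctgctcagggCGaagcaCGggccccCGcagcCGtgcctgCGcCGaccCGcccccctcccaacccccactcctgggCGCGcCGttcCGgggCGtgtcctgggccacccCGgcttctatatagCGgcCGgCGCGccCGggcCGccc
IGFBP4: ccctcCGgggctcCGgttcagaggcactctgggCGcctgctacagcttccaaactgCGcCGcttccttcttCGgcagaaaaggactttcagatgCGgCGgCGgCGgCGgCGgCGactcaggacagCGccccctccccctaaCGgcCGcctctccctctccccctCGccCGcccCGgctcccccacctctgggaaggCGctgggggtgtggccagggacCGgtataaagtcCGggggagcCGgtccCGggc
The longest run between CG dinucleotides in these stretches was 172 bases in IGFBP6, against 26 in IGFBP3 and 21 in IGFBP4. The stretches of IGFBP3 and IGFBP4 held more CG, 32 and 24 against 9. The run was not measured over all windows or in other members, such as IGFBP5 with 9 CG in its window.

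**Figure D2:**
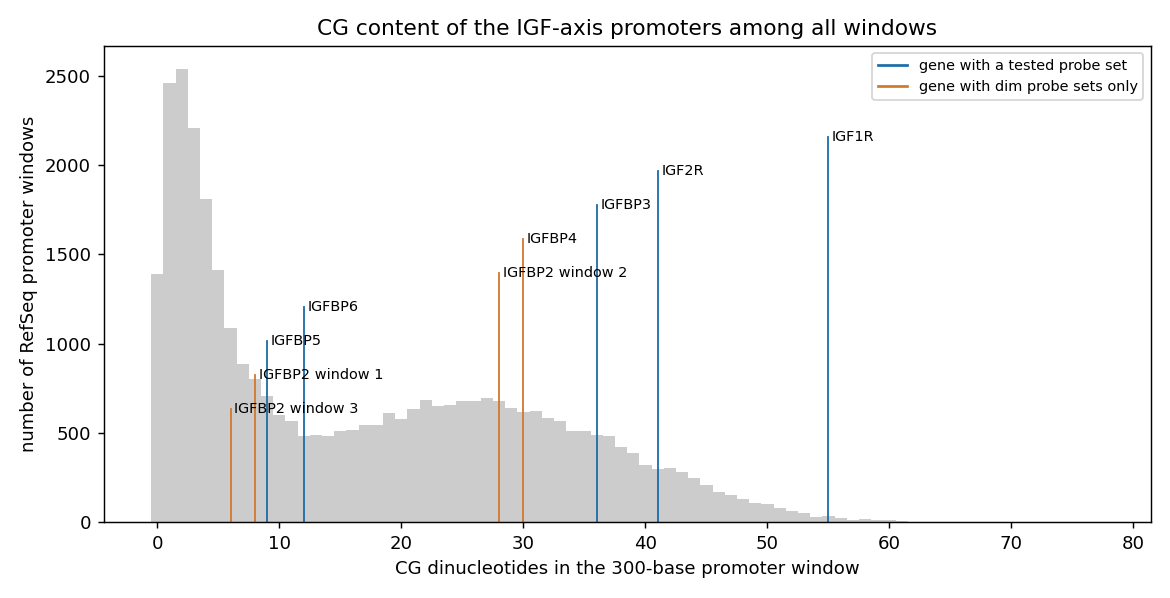
Number of RefSeq promoter windows (vertical axis) by their count of CG dinucleotides in 300 bases (horizontal axis), with a vertical line for each window of an IGF-axis gene; line heights serve only to separate the names. IGFBP6, at 12, lies near the median of 14, between the peaks at 2 and 27, and IGF1R, at 55, lies in the upper tail.

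Of the 22 member probe sets 10 were tested, covering 6 genes, because their signal reached 78.6 on at least 3 of the 6 arrays. Without the block 0 of these 10 passed (limma, adjusted p under 0.05), against 0.62% of all tested probe sets. At an unadjusted p under 0.05 there was 1 of the 10 (limma), against 12.6% of all tested probe sets. With the block 1 of the 10 passed, IGFBP6, against 4.22% of all tested probe sets and 1.9% that passed and were higher. The median difference was -0.01 over the 10 members and -0.01 over all 13545 tested probe sets. The difference was positive at 5 members and negative at the other 5.

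The ligand signals were dim. The 3 probe sets shared by INS-IGF2 and IGF2 never reached the test level on any array. The brightest of them, 202409_at, gave 71.2, 35.4 and 8.2 in untreated cultures 1, 2 and 3 and 48.1, 6.0 and 12.7 in treated ones. The other 2 lay between 4.6 and 19.4 on all arrays. No rise of these signals above the level used for testing was seen after zebularine. IGF1, the other IGF ligand and no member here, had 4 probe sets between 3.9 and 135, none tested; it was looked up after the other values were seen.

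IGF1R, the signalling receptor, had signals not far above the test level, and its 2 tested probe sets differed in opposite directions. At 203627_at the signal was 70.5, 204 and 76.6 in untreated cultures and 133, 181 and 97.5 in treated cultures of experiments 1, 2 and 3. At 203628_at it was 202, 139 and 75.6 in untreated and 156, 128 and 52.9 in treated cultures. The groups overlapped at both probe sets. The log2 difference was 0.31 ± 0.47 at 203627_at (95% interval -0.70 to 1.31) and -0.29 ± 0.49 at 203628_at (-1.34 to 0.77), neither past the threshold (limma, adjusted p = 0.832 and 0.853; blocked by experiment, 0.706 and 0.721). The first interval includes a 2-fold increase and the second a 2-fold decrease. At 203628_at treated cultures were lower in each experiment, and the sign of the mean turned without untreated 1 (0.0039) and without zebularine 3 (0.11). The probe set 208441_at was too dim to test, at 5.2 to 71.6.

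IGF2R, the clearance receptor, gave signals well above the test level and no difference past the threshold. At 201392_s_at it gave 1062, 984 and 782 in untreated and 1272, 935 and 926 in treated cultures. At 201393_s_at it gave 2440, 1490.5 and 2490 in untreated and 4589, 1290 and 1883 in treated cultures, so that the treated culture of experiment 1 alone was well above the rest. The log2 differences were 0.14 ± 0.25 (95% interval -0.41 to 0.69) and 0.10 ± 0.40 (-0.76 to 0.96; limma, adjusted p = 0.861 and 0.945; blocked by experiment, 0.750 and 0.855). Without zebularine 1 they became -0.01 and -0.42, and without untreated 2 the value at 201393_s_at became -0.14. With the block and without experiment 1 that probe set stood at -0.30.

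IGFBP3, the main carrier of IGFs in blood and a protein also made by many cell lines, gave very bright signals in both groups. At 210095_s_at these were 59666, 51036 and 27557 in untreated cultures 1, 2 and 3 and 62832, 41818.5 and 24363 in treated ones. At 212143_s_at they were 42109, 23810.5 and 17235 in untreated and 38554, 19439 and 10678 in treated ones. Experiment 1 was highest and experiment 3 lowest in both groups and at both probe sets, and the groups overlapped. The log2 difference was -0.13 ± 0.37 (95% interval -0.93 to 0.67) at 210095_s_at and -0.37 ± 0.43 (-1.30 to 0.56) at 212143_s_at (limma, adjusted p = 0.915 and 0.772).

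In the fit blocked by experiment the IGFBP3 intervals narrowed to -0.35 to 0.09 and -0.64 to -0.10, and neither probe set passed (limma, adjusted p = 0.502 and 0.121). At 212143_s_at the signal was lower in each experiment, with a ratio of treated to untreated of 0.916, 0.816 and 0.620. The unadjusted blocked p of this probe set was 0.0121 (limma), which ranked 1356 of 13545 tested probe sets. In the same fit 2808 of the 13545 had an unadjusted p under 0.05 (limma). The sign of the unblocked mean turned without zebularine 3, to 0.23 at 210095_s_at and 0.08 at 212143_s_at, and without untreated 1 at 210095_s_at, to 0.09. The signal of 210095_s_at was 89.1%, 71.7% and 88.4% of the brightest signal of its array in untreated cultures and 94.7%, 63.1% and 84.8% in treated ones. Whether such bright signals were limited by the range of the scanner was not tested. The lower IGFBP3 signals of experiment 3 went together with a lower brightest signal on both of its arrays.

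**Figure D3:**
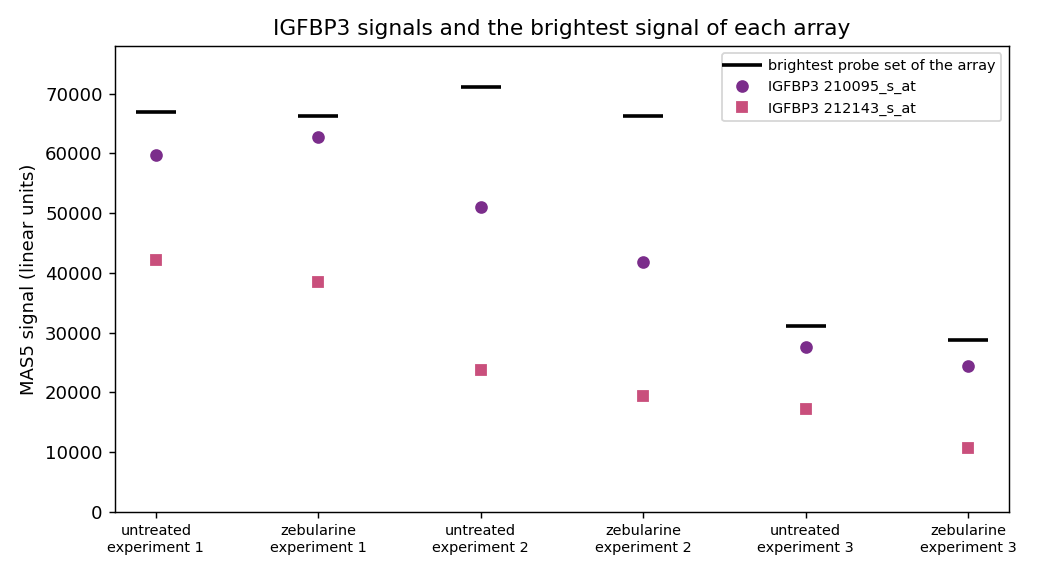
MAS5 signal (vertical axis, linear units from 0) of both IGFBP3 probe sets on each array, with a dash for the brightest probe set of that array. On both arrays of experiment 3 the brightest signal, 31176 and 28720.5, and the IGFBP3 signals are lower than on the other 4 arrays.

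IGFBP7, a secreted protein of the vessel wall and matrix that binds IGFs weakly, was bright, and its 2 bright probe sets differed in opposite directions. At 201162_at the signal was 5781, 3209 and 3692 in untreated and 3875, 2771 and 3191.5 in treated cultures, lower in each experiment. At 201163_s_at it was 5881.5, 7223 and 6358 in untreated and 8957, 7142 and 7114 in treated cultures, higher in experiments 1 and 3 and nearly equal in experiment 2. The groups overlapped at both. The log2 differences were -0.33 ± 0.27 (95% interval -0.92 to 0.26) and 0.25 ± 0.23 (-0.26 to 0.76; limma, adjusted p = 0.661 and 0.705; blocked by experiment, 0.299 and 0.408). The mean over both probe sets was -0.04 ± 0.24 (limma, adjusted p = 0.967). The remaining probe set, 213910_at, was too dim to test at 6.7 to 67.5.

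The ratio of the IGFBP7 probe sets on each array, 201163_s_at over 201162_at on the log2 scale, was 0.02, 1.17 and 0.78 in untreated and 1.21, 1.36 and 1.15 in treated cultures. It was higher in the treated culture of each experiment, by 1.18, 0.19 and 0.37, with means of 0.66 ± 0.58 and 1.24 ± 0.11 (SD, n = 3). A two-sided exact permutation test over arrays gave p = 0.2 (0.4 after Benjamini-Hochberg adjustment over the 4 genes with a pair of tested probe sets). The smallest p that 3 arrays against 3 allow is 0.1. For IGF1R the difference of the ratio, 203627_at over 203628_at, was 0.59 (exact permutation test, p = 0.6), for IGF2R -0.04 (exact permutation test, p = 1) and for IGFBP3 0.24 (exact permutation test, p = 0.2). The IGFBP3 ratio, 210095_s_at over 212143_s_at, was also higher in the treated culture of each experiment, by 0.20, 0.005 and 0.51. The untreated culture of experiment 1 had the lowest ratio at IGFBP7, IGF1R and IGFBP3.

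**Figure D4:**
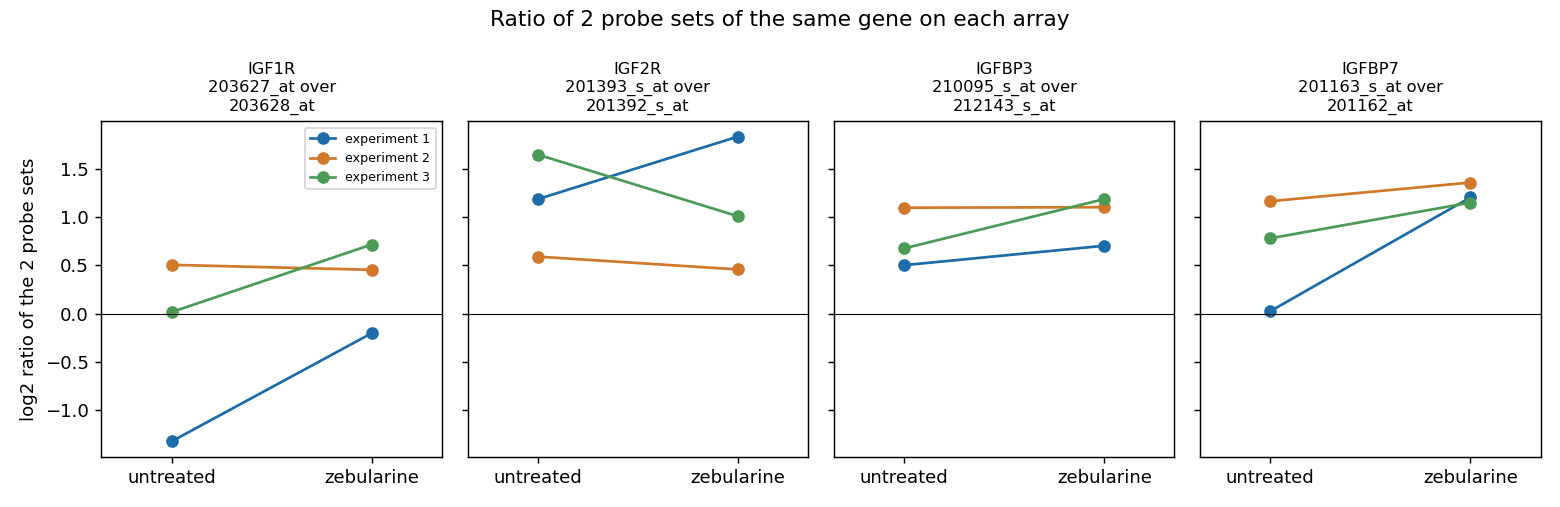
Log2 ratio of 2 tested probe sets of the same gene on each array (vertical axis), with a line for each experiment from the untreated to the treated culture. At IGFBP7 all 3 lines go up, by 1.18, 0.19 and 0.37, and at IGFBP3 they also do, by 0.20, 0.005 and 0.51. At IGF2R they go in different directions.

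IGFBP5, a binding protein that also attaches to extracellular matrix, was near or below the test level. Its 1 tested probe set of 5, 203425_s_at, gave 97.2, 92.2 and 108 in untreated and 31.5, 138 and 110 in treated cultures. The untreated cultures were close together while the treated ones spread widely around them. The log2 difference was -0.24 ± 0.53 (95% interval -1.38 to 0.90; limma, adjusted p = 0.888; blocked by experiment, 0.828). The treated culture of experiment 1 set its sign: without that array the difference was 0.27, and with the block and without experiment 1 it was 0.26. The other 4 probe sets lay between 5.0 and 88.6, and 1 of them reached the test level on 1 array.

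IGFBP1, IGFBP2 and IGFBP4 were too dim to test in both groups. IGFBP1, whose level in blood follows insulin and fasting, gave 8.2, 68.2 and 9.2 in untreated and 3.8, 43.8 and 21.3 in treated cultures. IGFBP2, a binding protein abundant in fetal tissues, lay between 6.9 and 17.8. IGFBP4, an inhibitory binding protein that the protease PAPPA cleaves, lay between 6.2 and 39.3. All 3 have 1 probe set each, none of which reached the test level on any array. Of the 12 member probe sets left out of the test, 11 never reached that level, and their signals over the arrays had a median of 15.85. Dim signals of this kind bear no fold change, and they do not show that a transcript was absent.

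**Figure D5:**
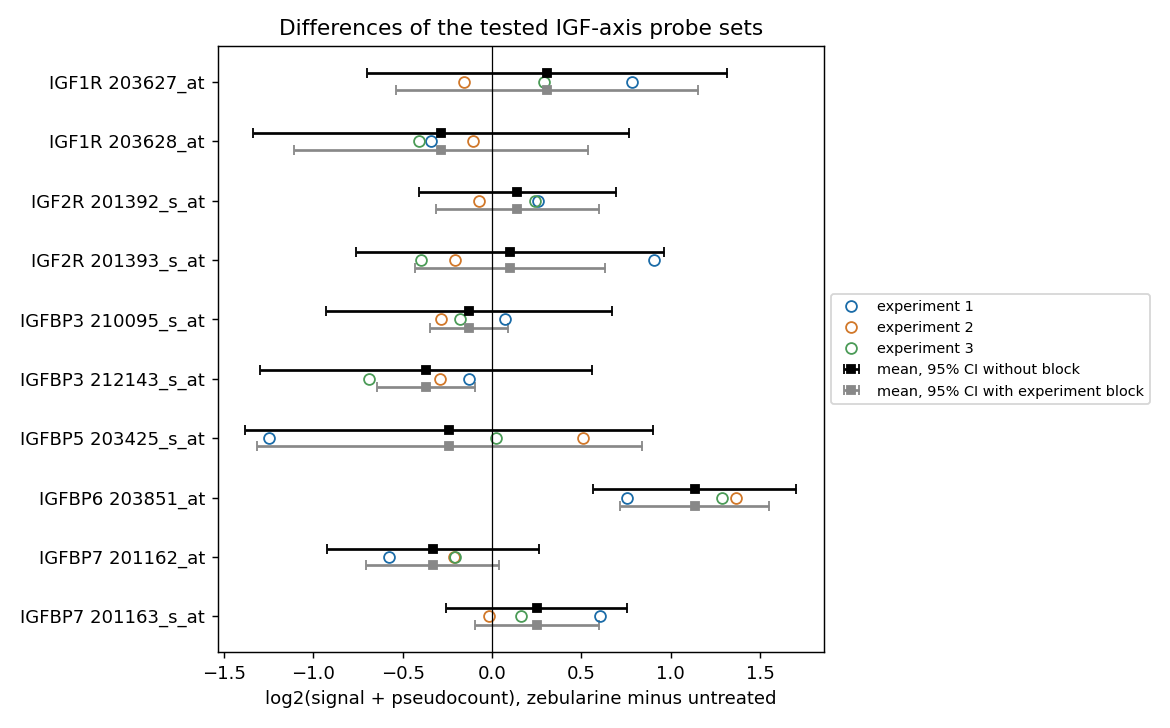
Log2 difference between zebularine and untreated cultures (horizontal axis, on the log2(signal + 16.34) scale) for the 10 tested probe sets. Squares with bars are means with 95% intervals from limma without (black) and with (grey) the experiment as a block, and circles are single experiments; the interval of IGFBP6, 0.56 to 1.70 without the block, lies above 0.

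Other genes of the pathway were taken from 7 lists with 98 genes in all, of which 80 had a probe set of their own and 67 were bright enough to test, each by its brightest probe set. Without the block 1 was higher and 0 lower (limma, adjusted p under 0.05), against 0.62% of all tested probe sets, and the median difference was -0.02. At an unadjusted p under 0.05 there were 12 of the 67 (17.9%), against 12.6% of all tested probe sets. With the block 3 were higher and 4 lower, against 4.22% of all tested probe sets. The list counts take each gene once, by its brightest probe set, whereas the shares beside them are over every tested probe set. The units are therefore unlike, and no share over all tested genes was computed. The counts by list follow, from ligands to kinases.

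Among genes of IGF carriage and processing, 1 of 9 tested fell, with the block only. CTSD, the lysosomal protease cathepsin D, went from 1585.5, 1164 and 2431 to 758, 729 and 657. It had no treated culture that reached an untreated one. The share of all tested probe sets separated this way was not counted. Separation in the other direction, with treated cultures higher, occurred at 8.71% of them. The log2 difference of CTSD was -1.19 ± 0.29 (limma, adjusted p = 0.0937, and 0.0220 blocked by experiment). The blocked call was lost without experiment 1 (limma, adjusted p = 0.0785) or experiment 3 (0.124).

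Among regulators of IGF2 RNA and its locus, 1 of 4 tested rose, with and without the block. HMGA2, a chromatin protein that promotes transcription of the IGF2 mRNA-binding protein gene IGF2BP2, went from 120, 228 and 133 to 362, 590 and 1018. Its log2 difference was 1.86 ± 0.38 (limma, adjusted p = 0.0485; blocked by experiment, 0.00773). Without the block the call was lost without untreated 1 (limma, adjusted p = 0.154), zebularine 2 (0.225), untreated 3 (0.191) or zebularine 3 (0.156), and with the block it held without each experiment (0.00187 to 0.0253). IGF2BP2 itself, named for that link after its value was seen, differed by -0.66 ± 0.34 (limma, adjusted p = 0.460).

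Of 3 tested genes of the CCN and IGFBP-related group, CCN1 fell and CCN3 rose with the block. These matricellular proteins share an IGFBP-like domain with the IGFBPs. CCN1 went from 1200.5, 1678 and 1802 to 626, 950 and 437, and CCN3 from 248, 444 and 436 to 529, 704 and 1463. In both genes the groups did not overlap. At CCN3 treated cultures were higher, a separation that occurred at 8.71% of all tested probe sets. The share separated with treated cultures lower, the direction of CCN1, was not counted. The log2 differences were -1.25 ± 0.31 and 1.13 ± 0.37 (limma, adjusted p = 0.0976 and 0.230; blocked by experiment, 0.0211 and 0.0303). The blocked calls of CCN1 and CCN3 were lost without experiment 1 (limma, adjusted p = 0.0560 and 0.111) and without experiment 3 (0.113 and 0.184).

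Of 8 tested receptors and receptor partners, ITGB3 rose and LRP1 fell with the block. LRP1, an endocytic receptor that binds IGFBP3 among many ligands, went from 972, 312 and 472 to 382, 96.7 and 231, lower in each experiment with overlap between the groups. ITGB3, the integrin beta 3 subunit, went from 145, 110 and 278 to 276, 667 and 579, higher in each experiment and also with overlap between the groups. The log2 differences were -1.28 ± 0.47 and 1.44 ± 0.40 (limma, adjusted p = 0.282 and 0.150; blocked by experiment, 0.0156 and 0.0298). The call of LRP1 was lost without experiment 1 (limma, adjusted p = 0.113 with the block), and that of ITGB3 without experiment 2 (0.0660).

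Among adaptors and feedback genes 1 of 19 tested fell, with the block only. GRB7, an adaptor that binds phosphorylated receptors, went from 335, 189.5 and 218 to 88.3, 84.9 and 84.9, a log2 difference of -1.33 ± 0.36 (limma, adjusted p = 0.149; blocked by experiment, 0.0487). That call was lost without experiment 1 (limma, adjusted p = 0.289) or experiment 3 (0.107). In the kinase lists none was called in either fit: 0 of 18 genes of PI3K, AKT and mTOR (3 had an unadjusted p under 0.05 in the unblocked fit) and 0 of 6 of RAS and MAPK (0 at an unadjusted p under 0.05), by limma. The 2 genes with the highest mean signal over the 6 arrays in each list are given. In the PI3K, AKT and mTOR list they were RHEB, the GTPase that activates mTOR, at a log2 difference of 0.40 ± 0.24 (limma, adjusted p = 0.530), and EIF4EBP1, a translation repressor under mTOR, at -0.41 ± 0.41 (0.726). In the RAS and MAPK list they were the MAPK kinase gene MAP2K2 at -0.50 ± 0.33 (limma, adjusted p = 0.568) and HRAS at 0.05 ± 0.26 (0.957).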

How the data were processed

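The authors deposited 1 linear intensity for every probe set on each array, made with MAS5 according to the submitters' processing notes. The version and settings of MAS5 are not stated in the labels. MAS5 corrects for background and mismatch probes and brings arrays to a common scale, and its dim values are imprecise. Signals were used as log2(signal + 16.34), with a pseudocount of the overall median divided by 8, which understates changes of dim genes. The test was restricted to probe sets at 78.6 (the 40th percentile) or more on at least 3 of 6 arrays, 13545 of the 22215 that are not among the 62 controls.

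Differences were tested two-sided in limma 3.58.1 under R 4.3.3, with moderated variances that follow a trend in mean signal, and p-values were adjusted by Benjamini-Hochberg across all 13545. The fit was also run on simulated data with normal noise, whose spread was taken from these arrays. That run is no check of the imprecision of dim signals. The p-values reflect spread between cultures of 1 line. Experiment numbers come from the titles and descriptions. Arrays of the same number deviated together from their groups (r = 0.323, 0.21 and 0.272 over probe sets), so blocked values are given too. No more than 0.198% of values were equal between any 2 arrays.

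A single symbol was listed for 19070 probe sets, several for 1043 and none for 2164, and matching 19058 of them by Entrez number to RefSeq changed 0. Members and gene lists were chosen with earlier results of these data known. Every member is named; from each list up to 4 genes called in either fit are named by smallest p, otherwise the 2 brightest tested. Alternatives covered the pseudocount, filter, quantile normalization, trend, experiment block, left-out arrays or experiments, and averaged probe sets. Promoter sequences are from RefSeq (GRCh38.p14).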

Additional observations from a re-analysis of the deposited data

How the results depend on the processing

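Without the block, 0 of the 10 tested members were called in limma under any of 12 alternatives (1 at an unadjusted p under 0.05 with all arrays). With the replicate block 1 was called, also without experiment 1, 2 or 3 (1 each), in every case IGFBP6. Its adjusted p ran from 0.0704 to 0.346 over 12 unblocked and from 0.00874 to 0.0189 over 4 blocked alternatives, so the block decides whether IGFBP6 is called; its sign was positive in 16 of 16. Calls over all probe sets numbered 84, and 55 with a pseudocount of 4.08, 42 without the filter, 6 without the trend, 572 with the replicate block (194, 1023 and 335 without experiments 1, 2 and 3) and 0 to 96 without 1 array at a time. The 0 arose without zebularine 2 (limma, 1315 at an unadjusted p under 0.05), and it was 16, 14 and 15 without untreated 1, untreated 3 and zebularine 3. Pathway genes called numbered 1, and 0 with a pseudocount of 4.08, without the filter, with a stricter one, after quantile normalization or without the trend, where HMGA2 had an adjusted p from 0.0543 to 0.168 and 11 to 15 genes an unadjusted p under 0.05 (limma). They numbered 7 with the replicate block (2, 12 and 3 without experiments 1, 2 and 3) and 0 to 4 without 1 array at a time, 4 without untreated 2 and 0 without untreated 1, untreated 3, zebularine 2 or zebularine 3 (10 to 12 at an unadjusted p under 0.05, limma).

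Leaving out 1 array at a time turned the sign of some uncalled differences, over ranges of -0.62 to 0.11 (IGF1R 203628_at), -0.0067 to 0.23 (IGF2R 201392_s_at), -0.42 to 0.49 (IGF2R 201393_s_at), -0.46 to 0.23 (IGFBP3 210095_s_at), -0.84 to 0.082 (IGFBP3 212143_s_at), -0.57 to 0.27 (IGFBP5), -0.98 to 0.036 (EIF4EBP1) and -0.10 to 0.17 (HRAS). With the block they reversed to -0.30 (IGF2R 201393_s_at) and 0.26 (IGFBP5) without experiment 1 and to -0.18 (HRAS) without experiment 2. EIF4EBP1 was called with the block without experiment 2, at -0.91 (limma, adjusted p = 0.0263). Averaging a gene's probe sets gave 0.010 for IGF1R and -0.041 for IGFBP7, opposite in sign to 203628_at and 201163_s_at. The cause was not tested. IGF2, IGFBP1, IGFBP2 and IGFBP4 were limited by signal near background.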
